A study of Mus musculus with 6 samples.

Results

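The genes described here encode the Wnt ligands, their cell surface receptors, the R-spondins and the secreted Wnt inhibitors, measured in infarcted mouse hearts that carried a Postn-driven recombinase with a floxed or a wild-type Runx1. They were chosen by symbol alone, as the protein-coding Wnt, Fzd, Sfrp, Dkk and Rspo genes together with Frzb, Wif1, Lrp5, Lrp6, Ror1 and Ror2. This gave 47 of the 35498 genes in the map, made up of 19 ligands, 14 receptors, 4 R-spondins and 10 secreted inhibitors. Of these, 33 had enough reads to be tested and 14 did not.

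Wnt proteins are lipid-modified secreted ligands that bind Frizzled receptors. With the co-receptors Lrp5 or Lrp6 they stabilise beta-catenin, which acts with TCF and LEF factors in the nucleus. With Ror1 or Ror2 some of them signal without beta-catenin, to the cytoskeleton and cell polarity. Secreted Frizzled-related proteins (Sfrp genes and Frzb) and Wif1 bind the ligands, Dickkopf proteins such as Dkk1 and Dkk2 bind Lrp5 and Lrp6, and R-spondins keep Frizzled receptors on the cell surface. In the injured heart, fibroblasts of the scar are a known source of secreted Frizzled-related proteins.

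The knockout group (Runx1_FB_KO, n = 3) carried Postn CreER+/- and the Runx1 fl allele. The control group (CTL, n = 3) carried the same recombinase with wild-type Runx1. All animals were C57BL/6J mice of 8 to 10 weeks, given tamoxifen in the diet from surgery onwards, and their ventricle below the ligature was taken 7 days after myocardial infarction. Cre activity follows Postn, which scar fibroblasts turn on, so cells that do not express Postn are not targeted. Runx1_FB_KO replicate 1 was male and replicates 2 and 3 were female, while CTL replicate 1 was female and replicates 2 and 3 were male.

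The libraries held 16598561 to 19987279 estimated reads. Runx1 itself was at 17.5, 10.9 and 67.4 CPM (reads scaled to the TMM library size) in knockout replicates 1, 2 and 3, against 96.4, 86.9 and 85.5 CPM in CTL (log2 fold change -1.48, SE 0.63, edgeR adjusted p = 0.154). Every knockout library was below CTL, and without knockout replicate 3 the log2 fold change was -2.61 (edgeR adjusted p = 0.000142). The 14 cardiomyocyte markers summed to 36880 to 109000 CPM in the knockout and 15330 to 20070 CPM in CTL, and mitochondrially encoded genes took 10.37% to 24.49% of reads in the knockout and 5.36% to 7.11% in CTL. The 14 fibroblast markers summed to 10330, 9308 and 27940 CPM in knockout replicates 1, 2 and 3 and to 32290 to 34740 CPM in CTL. The 12 activated fibroblast markers summed to 2306, 1671 and 11850 CPM in the same knockout libraries and to 11480 to 14070 CPM in CTL. The 12 macrophage markers summed to 1382 to 3422 CPM in the knockout and 3383 to 5263 CPM in CTL, and the 12 endothelial markers to 1357 to 1640 CPM in the knockout and 1247 to 1372 CPM in CTL. Yet 8 of the 12 endothelial markers had a negative log2 fold change (median -0.03), so their sum does not represent that list. None of the markers on these lists was at 0 in all libraries. Knockout replicate 3 stood nearest to CTL for the cardiomyocyte, fibroblast and activated fibroblast lists. The mural markers (10 genes) summed to 1107 to 1408 CPM in the knockout and 845.6 to 1086 CPM in CTL, although 6 of the 10 had a negative log2 fold change (median -0.16), so the sum does not represent that list. The endocardial markers (6) summed to 263.9 to 379.7 CPM in the knockout and 394.8 to 469.5 CPM in CTL. The Schwann markers (8) summed to 23.9 to 35.02 CPM in the knockout and 43.4 to 49.9 CPM in CTL. The lymphocyte markers (10) summed to 6.64 to 15.3 CPM in the knockout and 18.4 to 59.97 CPM in CTL, and the neutrophil markers (6) to 7.59 to 24.5 CPM in the knockout and 26.9 to 52.2 CPM in CTL.

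The promoters of 31 of the 47 genes were found in RefSeq (GRCm38.p6). Those of Sfrp2, the member with the highest TPM in all 6 libraries, of Fzd5 and Ror1, receptors whose knockout values all lay below CTL, and of Wif1, the inhibitor with the highest log2 fold change, are shown as the bases before the transcription start and outside the annotated gene. Capitals mark the letters TGTGGT (a RUNX core) or CTTTGA (a TCF and LEF core) on either strand.
Sfrp2 (chr3:83766071-83766320, plus strand): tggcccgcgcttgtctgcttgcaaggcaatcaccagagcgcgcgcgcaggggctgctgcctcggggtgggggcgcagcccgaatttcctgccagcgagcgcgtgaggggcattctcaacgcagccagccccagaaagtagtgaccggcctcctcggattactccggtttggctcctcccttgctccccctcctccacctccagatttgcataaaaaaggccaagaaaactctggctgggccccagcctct
Fzd5 (chr1:64737752-64738000, minus strand): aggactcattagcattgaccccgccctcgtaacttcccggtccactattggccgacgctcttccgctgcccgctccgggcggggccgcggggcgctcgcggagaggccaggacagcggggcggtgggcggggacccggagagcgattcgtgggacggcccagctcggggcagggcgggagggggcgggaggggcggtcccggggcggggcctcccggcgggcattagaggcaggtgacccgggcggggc
Ror1 (chr4:100095541-100095790, plus strand): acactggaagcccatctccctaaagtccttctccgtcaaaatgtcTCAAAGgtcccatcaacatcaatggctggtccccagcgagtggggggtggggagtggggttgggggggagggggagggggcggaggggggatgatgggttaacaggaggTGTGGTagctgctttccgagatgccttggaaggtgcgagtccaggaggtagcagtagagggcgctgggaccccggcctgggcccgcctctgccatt
Wif1 (chr10:121033754-121033959, plus strand): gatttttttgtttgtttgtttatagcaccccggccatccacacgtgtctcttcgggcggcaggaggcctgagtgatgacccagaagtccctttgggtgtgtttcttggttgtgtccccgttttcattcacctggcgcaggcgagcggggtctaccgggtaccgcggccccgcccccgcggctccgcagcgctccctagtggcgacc
Within 250 bases before the start, TGTGGT or its reverse complement ACCACA was present in 3 of 34 promoters of the members (8.82%), beside 14.0% of all 32851 promoters. These were the promoters of Dkk1, Ror1 and Sfrp5. CTTTGA or TCAAAG was present in 6 of the 34 (17.6%), beside 13.8% of all promoters. Of the 4 promoters shown, Sfrp2, Fzd5 and Wif1 held neither motif. In the Ror1 promoter TCAAAG began 205 bases and TGTGGT 96 bases before the start, and the 2 motifs did not overlap. A match describes letters in this window and does not show that a factor binds there.

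The first question was whether these genes differed between hearts with floxed and with wild-type Runx1. None of the 33 tested members passed an edgeR adjusted p of 0.05, and neither did any of the 14237 genes tested (0.0% called in either direction). At an unadjusted p under 0.05, 4 members were lower (Fzd5, Ror1, Sfrp2 and Fzd2), which is 12.1% of the members beside 13.1% of all genes. A further member, Wif1, was higher, which is 3.03% beside 19.3%. DESeq2 called 2 members lower, Sfrp2 (adjusted p = 0.0328) and Fzd5 (adjusted p = 0.0338), where it called 6.08% of all genes lower and 16.0% higher, and limma-voom called 0. The median log2 fold change was -0.47 over the tested members and -0.06 over all genes tested, with 23 members negative and 10 positive. Without knockout replicate 3, edgeR called 14 members lower (42.4%, beside 22.5% of all genes) and 1 higher (3.03%, beside 25.1%). That library was singled out after seeing the data, as the knockout library nearest to CTL. Leaving out any other single library called 0 genes. Each p-value without knockout replicate 3 in the text is to be read with these shares.

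The knockout libraries did not differ from CTL to the same degree. For 3 members every knockout library was below every CTL library (Fzd5, Ror1 and Rspo2; 9.09%, beside 18.8% of all genes), and for 1, Lrp6, every one was above (3.03%, beside 20.2%). Under scaling by library size alone the split was 9 below and 0 above, where the median log2 fold change of all genes was -0.52 and 39.8% of all genes were below. With only knockout replicates 1 and 2, 18 members were below all CTL libraries (36.6% of all genes were) and 2 were above (32.6% of all genes were).

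**Figure D1:**
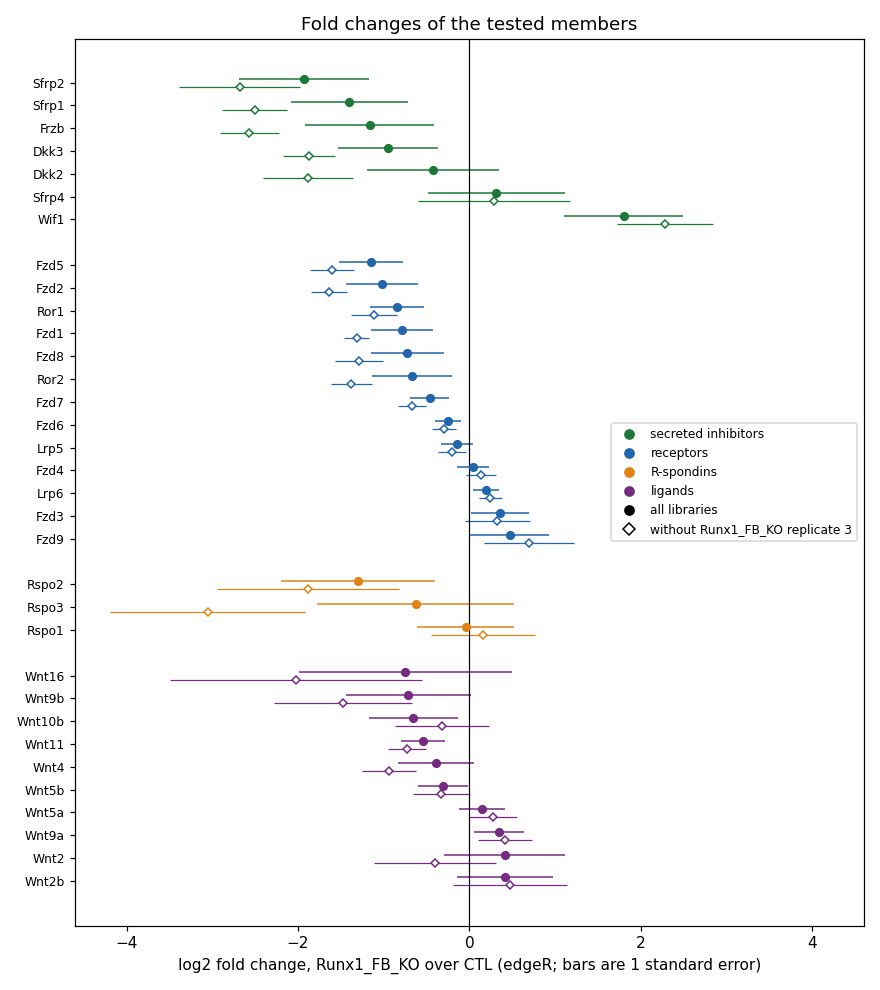
Log2 fold change of each of the 33 tested members, Runx1_FB_KO over CTL, with 1 standard error on each side (edgeR). Filled circles use all libraries and open diamonds leave out Runx1_FB_KO replicate 3, and the lower values of the inhibitors and of Fzd1, Fzd2, Fzd5 and Fzd8 move further from 0 without it.

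Secreted inhibitors were the largest of the 4 roles by summed level in every library. Levels of different genes were compared in TPM, which accounts for transcript length. The 10 inhibitors summed to 111.1, 82.9 and 627.6 TPM in knockout replicates 1, 2 and 3, against 439.2, 1582 and 1406 TPM in CTL. That was 46.0% to 73.8% of the summed TPM of the members in the knockout and 66.4% to 84.9% in CTL. The 14 receptors summed to 79.5, 74.4 and 174.1 TPM in the knockout, against 178.1, 214.6 and 237.0 TPM in CTL. The 19 ligands summed to 18.9, 18.7 and 42.0 TPM in the knockout, against 41.2, 48.0 and 48.8 TPM in CTL. For inhibitors, knockout replicate 3 lay above CTL replicate 1, while for receptors it lay just below the lowest CTL library.

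**Figure D2:**
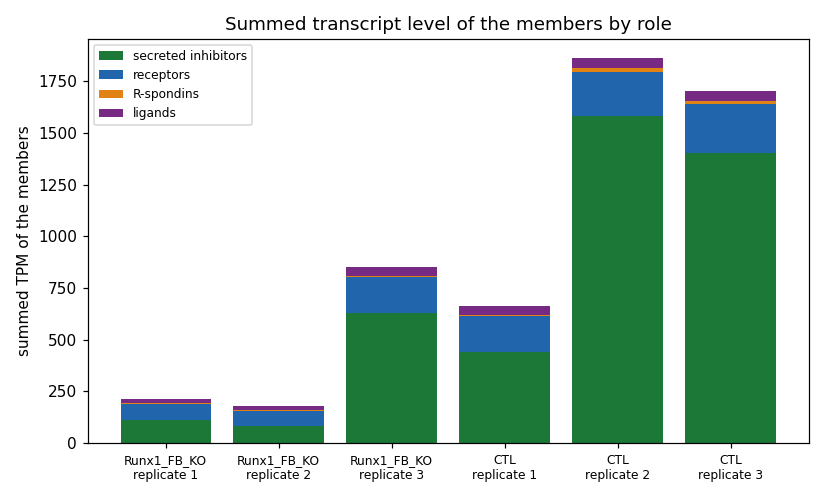
Summed TPM of the members in each library, stacked by role, with the Runx1_FB_KO libraries on the left and the CTL libraries on the right. Inhibitors take the largest part of every bar, and the 2 lowest bars, 213.5 and 180.2 TPM, are Runx1_FB_KO replicates 1 and 2.

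The log2 ratio of the knockout mean over the CTL mean of summed TPM was -2.06 for inhibitors, -0.94 for receptors and -0.79 for ligands. TPM depends on the whole library, including the mitochondrial share given above. With TPM rescaled without mitochondrially encoded genes, these ratios were -1.87, -0.68 and -0.53. On TMM-scaled CPM, which is used for all group comparisons below, these ratios were -1.53, -0.29 and -0.12 on the log2 scale. Without knockout replicate 3 the ratios of summed TPM were -3.56, -1.45 and -1.29. In bulk tissue, fewer cells of a type and less RNA per cell cannot be told apart.

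Sfrp1 and Sfrp2, which encode soluble proteins that hold the Wnt-binding domain of Frizzled, were the most abundant inhibitors. Sfrp2 (ENSMUSG00000027996, chr3:83766321-83774316, plus strand, GRCm38) was at 125.6, 93.8 and 350.5 CPM in knockout replicates 1, 2 and 3, against 180.3, 1095 and 898.1 CPM in CTL. The groups overlapped, because CTL replicate 1 lay below knockout replicate 3. Its log2 fold change of -1.93 (SE 0.76) did not pass (edgeR adjusted p = 0.139), and it was -1.34 with sex as a covariate (edgeR adjusted p = 0.412) and -2.68 without knockout replicate 3 (edgeR adjusted p = 0.0174). Among the females, the knockout libraries held 93.8 and 350.5 CPM and the CTL library 180.3 CPM. Among the males, the knockout library held 125.6 CPM and the CTL libraries 1095 and 898.1 CPM.

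Sfrp1 (ENSMUSG00000031548, chr8:23411502-23449632, plus strand) was at 142.6, 74.9 and 503.4 CPM in the knockout, against 419.0, 697.3 and 792.0 CPM in CTL. Here too knockout replicate 3 lay inside the CTL range. Its log2 fold change of -1.40 (SE 0.68) did not pass (edgeR adjusted p = 0.192), and it was -2.51 without knockout replicate 3 (edgeR adjusted p = 0.00168). In TPM, CTL replicate 1 held nearly equal levels of Sfrp2 and Sfrp1 (177.2 and 164.6 TPM), while CTL replicates 2 and 3 held 1085 and 937.2 TPM of Sfrp2 beside 273.9 and 322.1 TPM of Sfrp1.

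Frzb and Dkk3 had the same arrangement of libraries. Frzb, a further secreted Frizzled-related protein known from cartilage (chr2:80411970-80447625, minus strand), was at 23.1, 15.8 and 119.9 CPM in the knockout, against 79.1, 167.2 and 110.4 CPM in CTL. Dkk3, a divergent Dickkopf (chr7:112116017-112159057, minus strand), was at 35.6, 33.0 and 131.8 CPM in the knockout, against 88.4, 184.6 and 115.3 CPM in CTL. For both genes knockout replicates 1 and 2 lay below every CTL library and replicate 3 lay within the CTL range. Their log2 fold changes were -1.16 (SE 0.75, edgeR adjusted p = 0.296) for Frzb and -0.95 (SE 0.58, edgeR adjusted p = 0.273) for Dkk3. Without knockout replicate 3 they were -2.57 and -1.87 (edgeR adjusted p = 0.00102 and 0.00237). The fibroblast and activated fibroblast markers were lowest in the same 2 knockout libraries, and their part in these values was not tested.

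**Figure D3:**
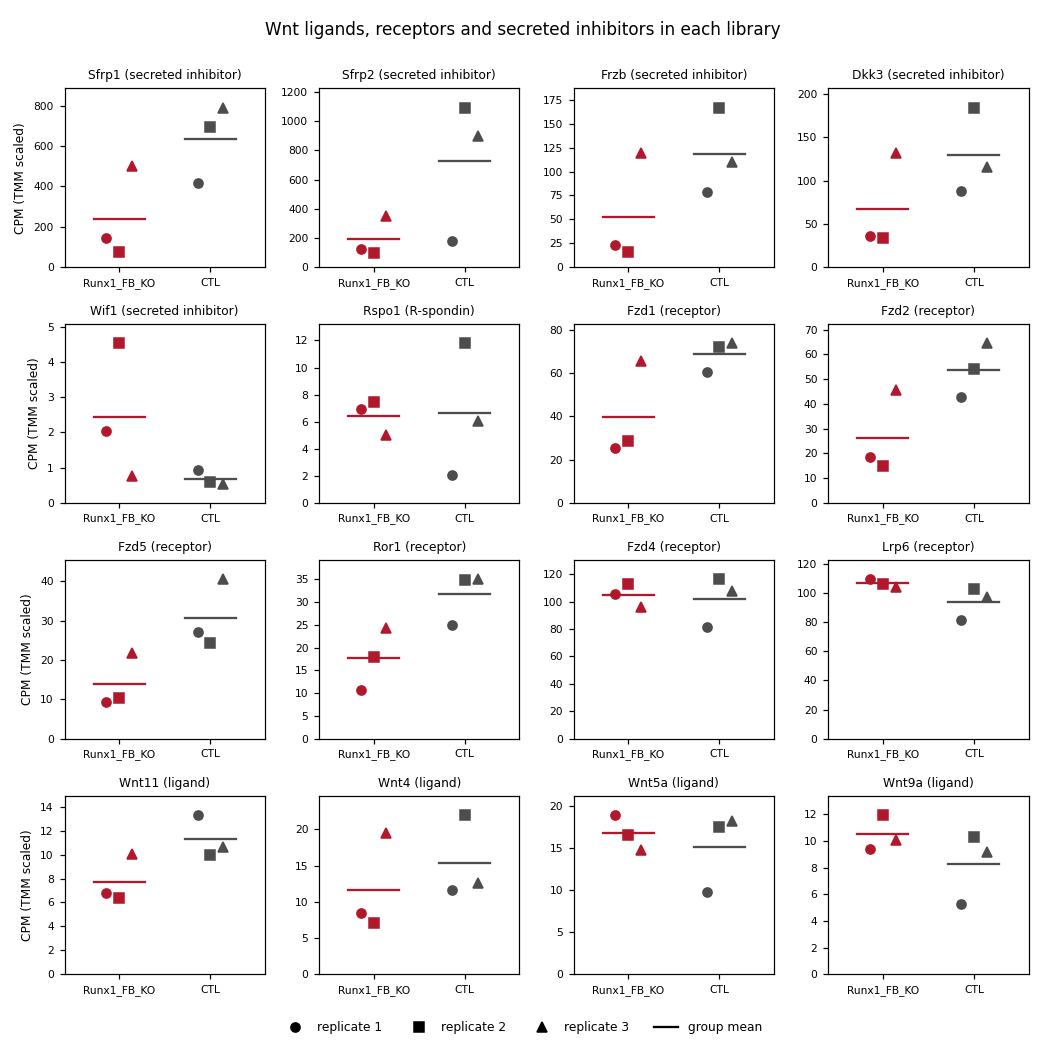
TMM-scaled CPM of 16 members in each library, with Runx1_FB_KO on the left and CTL on the right of each panel, 1 symbol shape per replicate and a line at the group mean. Sfrp1, Frzb, Dkk3, Fzd1 and Fzd2 show Runx1_FB_KO replicates 1 and 2 below all CTL libraries and replicate 3 inside or near the CTL range, whereas Fzd4 and Lrp6 lie at similar levels in all libraries.

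The remaining inhibitors were scarce. Wif1, Wnt inhibitory factor (chr10:121033960-121100650, plus strand), was at 2.03, 4.53 and 0.77 CPM in the knockout, against 0.93, 0.58 and 0.55 CPM in CTL. Knockout replicates 1 and 2 were above CTL and replicate 3 was inside its range (log2 fold change 1.80, SE 0.69, edgeR adjusted p = 0.134). Without replicate 3 Wif1 was called higher (log2 fold change 2.28, edgeR adjusted p = 0.0129). These values rest on 31, 58 and 15 reads in the knockout and 21, 13 and 11 reads in CTL. Salmon gave those of knockout replicates 1 and 2 to a coding transcript, ENSMUST00000020439.10 (31.0 and 58.1 reads). It received 0.0 reads in knockout replicate 3 and 0.0, 0.0 and 5.0 reads in CTL. Another coding transcript, ENSMUST00000175867.1, received 0.0, 0.0 and 15.0 reads in the knockout and 21.0, 5.4 and 0.0 reads in CTL. Dkk2, which binds Lrp6, was at 0.85, 0.55 and 4.49 CPM in the knockout, against 3.60, 2.01 and 2.44 CPM in CTL, so its knockout libraries lay on both sides of CTL. A log2 fold change of -0.42 (SE 0.77) did not pass (edgeR adjusted p = 0.712), but it was -1.88 without knockout replicate 3 (edgeR adjusted p = 0.0223). Sfrp4 was at 2.75, 3.90 and 3.78 CPM in the knockout, against 0.40, 5.85 and 2.14 CPM in CTL.

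Among the receptors, Fzd5 and Ror1 had every knockout library below CTL. Fzd5 (chr1:64730558-64737751, minus strand) was at 9.43, 10.2 and 21.8 CPM in the knockout, against 27.2, 24.3 and 40.6 CPM in CTL (log2 fold change -1.15, SE 0.37, edgeR adjusted p = 0.104). Ror1, a receptor kinase that binds Wnt5a (chr4:100095791-100444765, plus strand), was at 10.6, 17.96 and 24.3 CPM in the knockout, against 25.1, 34.9 and 35.1 CPM in CTL (log2 fold change -0.84, SE 0.31, edgeR adjusted p = 0.127). For these 2 receptors the groups did not overlap, although knockout replicate 3 was the nearest to CTL in each. Without knockout replicate 3 the log2 fold changes of Fzd5 and Ror1 were -1.60 and -1.11 (edgeR adjusted p = 0.00207 and 0.0118). With all libraries, Fzd5 had the smallest p of the members and ranked 2465 of 14237 genes by p.

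Fzd2 and Fzd1 were the Frizzled genes with the highest TPM in CTL, and in them knockout replicate 3 reached the CTL range. Fzd2 was at 18.7, 14.8 and 45.7 CPM in the knockout, against 42.8, 53.9 and 64.4 CPM in CTL (log2 fold change -1.02, SE 0.42, edgeR adjusted p = 0.151). Fzd1 was at 25.5, 28.4 and 65.5 CPM in the knockout, against 60.4, 72.4 and 73.9 CPM in CTL (log2 fold change -0.79, SE 0.36, edgeR adjusted p = 0.176). Without knockout replicate 3 these values were -1.64 and -1.31 (edgeR adjusted p = 0.000831 and 0.000441).

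For Fzd7, Fzd8 and Ror2, knockout replicates 1 and 2 were below every CTL library and replicate 3 was inside the CTL range. Fzd7 was at 17.4, 15.6 and 25.6 CPM in the knockout, against 27.4, 23.6 and 30.0 CPM in CTL. Fzd8 was at 10.2, 10.3 and 26.0 CPM in the knockout, against 18.4, 24.1 and 34.6 CPM in CTL. Ror2, the second receptor kinase of this kind, was at 5.04, 5.08 and 15.3 CPM in the knockout, against 16.4, 11.2 and 13.1 CPM in CTL. Each had a negative log2 fold change that did not pass (-0.47, -0.73 and -0.67, edgeR adjusted p = 0.189, 0.259 and 0.325). Without knockout replicate 3 all of them were called lower (-0.67, -1.29 and -1.38, edgeR adjusted p = 0.0126, 0.00781 and 0.00297). Fzd6 differed less, at 27.6, 24.7 and 31.2 CPM in the knockout, against 33.3, 30.2 and 35.6 CPM in CTL.

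The co-receptors Lrp5 and Lrp6 and the Frizzled gene Fzd4, a receptor known from blood vessels, were at like levels in both groups. Lrp5 was at 100.7, 93.8 and 117.8 CPM in the knockout, against 95.3, 120.6 and 129.3 CPM in CTL (log2 fold change -0.14, SE 0.18). Fzd4 was at 105.2, 112.7 and 96.2 CPM in the knockout, against 81.1, 116.4 and 108.0 CPM in CTL (log2 fold change 0.04, SE 0.18). Lrp6 was at 109.7, 106.3 and 104.6 CPM in the knockout, against 81.4, 102.7 and 97.3 CPM in CTL (log2 fold change 0.19, SE 0.15, edgeR adjusted p = 0.394). The knockout values of Lrp6 were all above CTL by a small margin, and under library size alone its log2 fold change was -0.28. Fzd3, at 4.12, 5.78 and 5.67 CPM in the knockout, against 2.62, 5.13 and 4.42 CPM in CTL, overlapped between groups (log2 fold change 0.35, SE 0.34). Fzd9, at 2.29, 1.48 and 1.23 CPM in the knockout, against 0.84, 1.61 and 1.14 CPM in CTL, overlapped as well (log2 fold change 0.47, SE 0.46). Both of these were negative under library size alone, as was Fzd4 (-0.44).

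Within the summed receptor TPM the mixture of receptors also differed between libraries. Lrp6 took 22.6%, 20.6% and 12.3% of it in knockout replicates 1, 2 and 3, against 9.63%, 10.06% and 9.66% in CTL. Its long coding transcript ENSMUST00000032322.14 held 9.15, 8.745 and 15.6 TPM in the knockout, against 13.9, 17.4 and 17.2 TPM in CTL. Short transcripts added to its share, such as the retained intron ENSMUST00000203235.1, with 63.0, 57.0 and 36.0 reads in the knockout. That transcript held 5.13, 5.59 and 3.91 TPM in the knockout, against 3.03, 2.65 and 2.81 TPM in CTL. Fzd1 took 7.14%, 8.53% and 14.6% in the knockout, against 14.9%, 14.9% and 14.0% in CTL. Summed over its transcripts, Lrp5 held a steady share, from 21.2% to 21.6% in the knockout and from 20.6% to 21.8% in CTL. Its coding transcript ENSMUST00000025856.16 held 16.5, 15.0 and 32.2 TPM in the knockout, against 25.7, 33.7 and 38.3 TPM in CTL. A nonsense-mediated decay transcript, ENSMUST00000177294.1, held 0.225, 0.884 and 4.48 TPM in the knockout, against 10.5, 12.6 and 10.3 TPM in CTL. The steady share is therefore not that of the coding transcript alone. Counted by gene, knockout replicate 3 had a receptor mixture close to that of CTL.

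R-spondins were low in both groups. Rspo1 was at 6.94, 7.42 and 5.003 CPM in the knockout, against 2.09, 11.8 and 6.07 CPM in CTL, so the groups overlapped (log2 fold change -0.05, SE 0.57). Rspo2 had 10, 0 and 17 reads in the knockout, against 21, 28 and 35 reads in CTL, with all knockout libraries below CTL (log2 fold change -1.30, SE 0.90, edgeR adjusted p = 0.325). Its 0 reads in knockout replicate 2 allow up to 0.234 CPM. Rspo3, known from blood vessel development, had 0, 4 and 42 reads in the knockout, against 14, 41 and 30 reads in CTL, and overlapped. Rspo4 had 0 reads in all libraries.

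CTL replicate 1, the only female CTL library, held the lowest CTL value of 22 of the 33 tested members, Rspo1, Sfrp2 and Sfrp4 among them. The same share was not taken over all genes, so this count cannot be called particular to the members. The same library held 112.4 CPM summed over the 10 epicardial and mesothelial markers, beside 370.9 and 229.0 CPM in CTL replicates 2 and 3 and 188.7 to 243.7 CPM in the knockout. It also held 0.40 CPM summed over the 6 adipocyte markers, beside 314.5 and 282.4 CPM in the other CTL libraries and 3.60, 116.6 and 39.0 CPM in knockout replicates 1, 2 and 3. Their part in the values of these members was not tested.

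Of the ligands, Wnt11, Wnt5a, Wnt4 and Wnt9a were the most abundant by TPM. Wnt11, a ligand of beta-catenin-independent signalling and heart development, was at 6.81, 6.40 and 10.0 CPM in the knockout, against 13.3, 10.0 and 10.6 CPM in CTL (log2 fold change -0.54, SE 0.25, edgeR adjusted p = 0.179). Knockout replicate 3 reached the lowest CTL library. Wnt5a, a ligand of Ror receptors, was at 18.9, 16.6 and 14.8 CPM in the knockout, against 9.74, 17.4 and 18.1 CPM in CTL, with a log2 fold change of 0.15 (SE 0.27) that was -0.34 under library size alone. Wnt4 was at 8.51, 7.03 and 19.5 CPM in the knockout, against 11.7, 22.0 and 12.6 CPM in CTL (log2 fold change -0.39, SE 0.44). Wnt9a was at 9.43, 11.9 and 10.1 CPM in the knockout, against 5.29, 10.3 and 9.15 CPM in CTL (log2 fold change 0.35, SE 0.29, and -0.12 under library size alone). Wnt11 and Wnt4 were called lower without knockout replicate 3 (log2 fold changes -0.73 and -0.94, edgeR adjusted p = 0.0290 and 0.0430). With all libraries the groups overlapped for all 10 ligands tested, and the ligands had 0 members at an unadjusted p under 0.05 in edgeR.

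The other ligands were low. Wnt5b was at 2.68, 3.59 and 3.57 CPM in the knockout, against 4.05, 4.64 and 3.48 CPM in CTL. Wnt10b was at 1.83, 0.78 and 0.61 CPM in the knockout, against 1.96, 1.47 and 1.64 CPM in CTL. Both overlapped between groups. Wnt2b was at 1.83, 1.48 and 1.58 CPM in the knockout, against 0.44, 1.74 and 1.49 CPM in CTL. Wnt2 was at 0.72, 0.86 and 2.65 CPM in the knockout, against 1.07, 1.70 and 0.45 CPM in CTL. Wnt16 and Wnt9b averaged 0.51 and 0.70 CPM in the knockout and 0.89 and 1.17 CPM in CTL. Of the 14 members left untested, Rspo4, Wnt8a and Dkk4 had 0 reads throughout, which allows up to 0.133 to 0.234 CPM per library by counting error alone. Wnt1, Wnt3, Wnt3a, Wnt6, Wnt7a, Wnt7b, Wnt8b, Wnt10a, Fzd10, Dkk1 and Sfrp5 had at most 10 reads in any library. The canonical ligands Wnt1, Wnt3 and Wnt3a and the inhibitor Dkk1 were thus at the limit of detection in both groups.

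The members were also set against the 14 fibroblast markers of the same library, as the log2 CPM of the member minus the mean log2 CPM of the markers. Fzd1 then stood at -3.08, -2.67 and -2.71 in the knockout and -2.78, -2.87 and -2.77 in CTL, a mean difference of -0.01 on the log2 scale. Ror1, Ror2 and Fzd8 had mean differences of 0.01, 0.05 and 0.08, so the mean difference of these receptors was close to that of this marker list. Other receptors were less close. Fzd5 and Fzd2 had mean differences of -0.31 and -0.27, and Fzd7 and Fzd6 of 0.42 and 0.66. The highest receptor was Fzd9 at 1.35. Sfrp1 stood at -0.60, -1.28 and 0.24 in the knockout and 0.01, 0.39 and 0.65 in CTL, a mean difference of -0.90. Sfrp2 and Frzb had mean differences of -0.90 and -0.77, but their groups overlapped, as did those of Sfrp1. Relative to fibroblast markers, 7 members had all knockout values above CTL (Fzd3, Fzd4, Lrp5, Lrp6, Wnt2, Wnt2b and Wnt9a), and 0 had all of them below. Lrp6 stood at -0.98, -0.77 and -2.03 in the knockout and -2.35, -2.37 and -2.37 in CTL. Over all genes tested, 35.3% were above and 1.27% below by this measure, against which the 7 of 33 members are to be read. With the 12 activated fibroblast markers in place of the fibroblast markers, 8 members were above and 0 below, beside 30.6% and 0.0913% of all genes. A change of list moves the mean difference of every member by the same amount, so the order of the members stayed the same. With the activated fibroblast markers the mean differences were 0.95 for Fzd1, 0.96 for Ror1, 1.01 for Ror2 and 1.04 for Fzd8. For Sfrp1, Sfrp2 and Frzb they were 0.06, 0.06 and 0.19, and the groups of all these genes overlapped. Which members stood close to fibroblast markers therefore depended on the list. This ratio describes each library and carries no test.

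**Figure D4:**
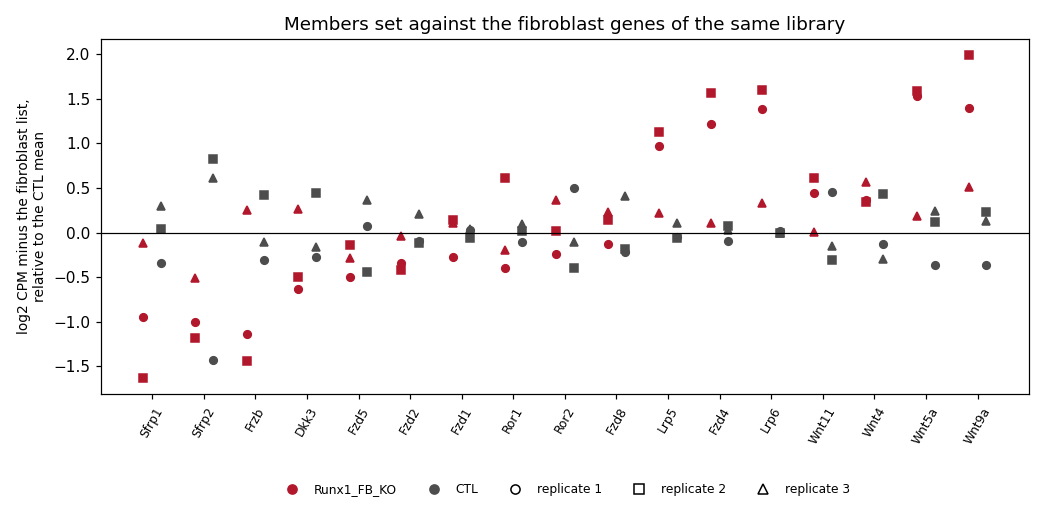
Log2 CPM of 17 members minus the mean log2 CPM of the fibroblast markers in the same library, drawn relative to the CTL mean, with Runx1_FB_KO on the left and CTL on the right of each gene and 1 symbol shape per replicate. With this list Fzd1 lies near 0 in all libraries, Sfrp1 and Frzb lie lowest in Runx1_FB_KO replicates 1 and 2, and Lrp6 and Wnt9a lie above CTL.

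The other genes of the pathway were taken from 4 lists, of which 66 of 74 distinct genes were tested; some stand on more than 1 list. With edgeR 0 passed in either direction, DESeq2 called 17 of 66 (25.8%, beside 22.1% of all genes) and edgeR without knockout replicate 3 called 35 of 66 (53.0%, beside 47.6% of all genes). Of the 23 pathway genes named below, 19 were among those called without that library, and Axin2, Bcl9l, Ccnd1 and Celsr3 were not. These genes were picked mainly by small p in the same libraries, so a high share called is not a result. Among 22 tested genes for Wnt release and surface control, 5 were lower and 5 higher at an unadjusted p under 0.05, beside the 13.1% and 19.3% of all genes given above. Kremen1, the receptor with which Dickkopf proteins clear Lrp6, was at 191.4, 210.3 and 144.6 CPM in the knockout, against 94.0, 116.3 and 104.6 CPM in CTL (log2 fold change 0.79, SE 0.20, edgeR adjusted p = 0.0725). Trabd2b, a membrane protease that inactivates Wnt ligands, was at 186.3, 222.9 and 102.2 CPM in the knockout, against 55.1, 84.7 and 77.9 CPM in CTL (log2 fold change 1.23, SE 0.32, edgeR adjusted p = 0.0753). Tspan12, a partner of Fzd4, had a log2 fold change of 0.60 (SE 0.15, edgeR adjusted p = 0.0741). On TMM-scaled CPM all knockout libraries lay above all CTL libraries for these 3 genes, knockout replicate 3 included, as for 20.2% of all genes. The pathway genes named here and below were picked for a small p, which favours groups that lie apart. Under library size alone the log2 fold change of Tspan12 was 0.13 (edgeR adjusted p = 0.610).

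Lower in the same list was Ptk7, a Wnt co-receptor of cell polarity, at 11.3, 11.01 and 39.97 CPM in the knockout, against 75.3, 54.8 and 58.8 CPM in CTL (log2 fold change -1.59, SE 0.51, edgeR adjusted p = 0.102). Tpbg, a membrane glycoprotein, had a log2 fold change of -1.28 (SE 0.41, edgeR adjusted p = 0.102) and Igfbp4, which binds IGFs and can block Wnt receptors, one of -0.96 (SE 0.31, edgeR adjusted p = 0.103). The groups did not overlap for Ptk7 and Tpbg, beside 18.8% of all genes with every knockout library below CTL.

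Of 12 tested planar polarity genes, 1 was lower and 3 were higher at an unadjusted p under 0.05, beside 13.1% and 19.3% of all genes. Daam1, a formin that links Dishevelled to actin, was at 138.3, 123.7 and 100.4 CPM in the knockout, against 54.6, 75.6 and 58.0 CPM in CTL (log2 fold change 0.94, SE 0.20, edgeR adjusted p = 0.0682). The related Daam2 went the other way, with a mean of 21.5 ± 10.4 CPM in the knockout and 36.4 ± 7.54 CPM in CTL (SD, n = 3 each; log2 fold change -0.75, edgeR adjusted p = 0.172). The atypical cadherins Celsr1 and Celsr2 had log2 fold changes of 1.76 and 2.11 (edgeR adjusted p = 0.0925 and 0.107). Vangl2, a core polarity protein, was at 3.54, 3.51 and 7.61 CPM in the knockout, against 11.3, 9.87 and 9.90 CPM in CTL (log2 fold change -1.07, edgeR adjusted p = 0.104). Celsr3 was lower without passing (log2 fold change -0.62, edgeR adjusted p = 0.375).

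Of 24 tested genes of the beta-catenin branch inside the cell, 5 were lower and 1 was higher at an unadjusted p under 0.05. Over all genes, 13.1% were lower and 19.3% higher at that p. Dvl2, a Dishevelled scaffold, was at 9.82, 12.8 and 11.6 CPM in the knockout, against 18.4, 17.9 and 18.5 CPM in CTL (log2 fold change -0.68, SE 0.17, edgeR adjusted p = 0.0728). Here knockout replicate 3 lay with replicates 1 and 2, below CTL. Dvl3 had 0.39 (edgeR adjusted p = 0.185), and under library size alone it had -0.12. Of the nuclear partners of beta-catenin, Bcl9l and Pygo2 had -0.40 and -0.46 with groups apart, while Pygo1 had 0.97 with groups that overlapped (edgeR adjusted p = 0.132, 0.137 and 0.107).

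Of 14 tested feedback and target genes, 2 were lower and 1 was higher at an unadjusted p under 0.05. The shares of all genes were 13.1% lower and 19.3% higher. Axin2, which is also on the list before, is a scaffold of the beta-catenin destruction complex and a common readout of the pathway, and it was at 5.76, 6.17 and 4.44 CPM in the knockout, against 3.20, 3.26 and 4.18 CPM in CTL. On TMM-scaled CPM all its knockout values lay above CTL, as for 20.2% of all genes (log2 fold change 0.62, SE 0.28, edgeR adjusted p = 0.171). Relative to total reads this did not hold. There Axin2 was higher in CTL replicate 3 (84 of 16598561 reads) than in knockout replicate 3 (87 of 18201188 reads). Nkd1, a feedback inhibitor that binds Dishevelled, was at 4.91, 5.08 and 9.55 CPM in the knockout, against 9.03, 17.8 and 14.9 CPM in CTL (log2 fold change -1.09, SE 0.37, edgeR adjusted p = 0.111). Dact1, which also binds Dishevelled, was at 18.9, 15.1 and 32.7 CPM in the knockout, against 44.2, 46.1 and 52.0 CPM in CTL (log2 fold change -1.09, SE 0.29, edgeR adjusted p = 0.0771). The named genes were picked from both directions, so their lying on both sides of CTL is not a result. Of the 14 tested, 9 had a negative and 5 a positive log2 fold change (median -0.70). Apcdd1, a membrane Wnt inhibitor, had -0.95 (edgeR adjusted p = 0.173), Tnfrsf19, a TNF receptor family gene, 2.08 (edgeR adjusted p = 0.153) and the cyclin gene Ccnd1 0.35 (edgeR adjusted p = 0.251).

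**Figure D5:**
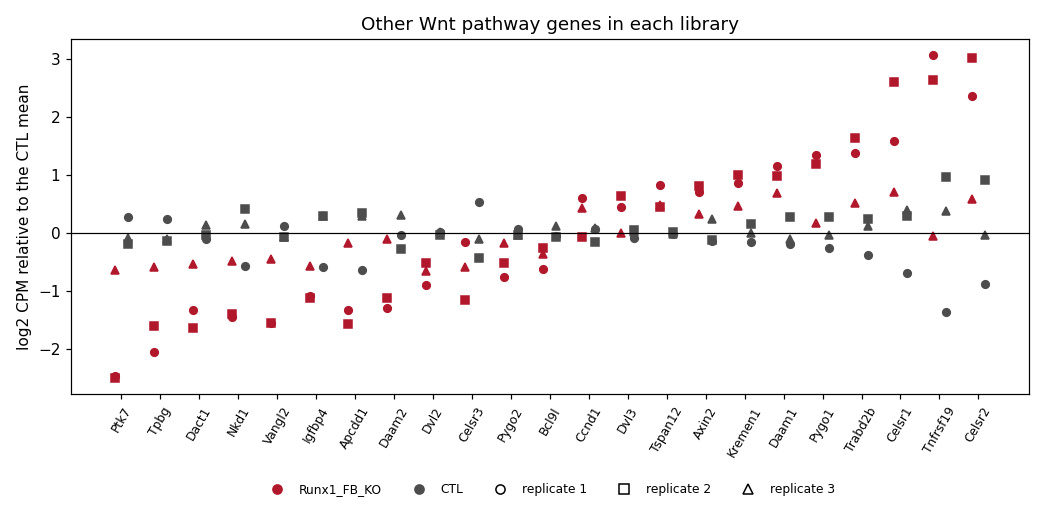
Log2 CPM of the named pathway genes relative to the CTL mean, with Runx1_FB_KO on the left and CTL on the right of each gene, 1 symbol shape per replicate, ordered by log2 fold change. Ptk7, Dact1 and Vangl2 have all Runx1_FB_KO libraries below CTL, and Tspan12, Kremen1, Daam1 and Trabd2b have all of them above.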

How the data were processed

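Poly-A RNA of mouse heart was sequenced in 6 libraries. Per the submitters' processing notes the authors used Salmon 1.5.2 and DESeq2 1.44.0 with build mm10 (GRCm38). No annotation release is named in the sources used here. The authors deposited estimated counts, TPM and effective lengths per transcript. Salmon assigns fractions of reads to transcripts with common sequence, so these estimated counts, as the authors gave them, can hold fractions. The deposited TPM were used as they are.

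Of 116546 transcripts, 115977 matched a gene (GENCODE M21). The other 569, with 0.0777% to 0.102% of reads, were left out. Estimated counts were summed per gene, rounded, filtered by filterByExpr to 14237 genes and scaled by TMM (factors 0.732 to 1.214). Genotype was tested with the quasi-likelihood test of edgeR 4.0.16 (R 4.3.3), and p-values were adjusted by Benjamini-Hochberg across the whole table, with 0.05 as threshold. The SE was taken as |log2 fold change| over the root of F. Log2 CPM for list levels used a prior count of 2. The labels do not say that samples came from separate animals, so p-values measure only the spread between these samples. Floors for 0 reads (3 reads) cover counting error only. Promoters were searched for exact motif letters on both strands, and bases inside the annotated gene were not printed. The fits were tested on simulated counts whose dispersion was capped at 0.05 and which held no outlying library. That test does not show how the fits perform at the spread of these libraries.

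The alternatives added a sex term or a replicate block, or changed the scaling (RLE, upper quartile, library size), the low-count filter (none, or 1 CPM in 3 libraries), the length offset, the threshold (0.1) or the tool (DESeq2 1.42.0, limma-voom of limma 3.58.1). Others dropped mitochondrially encoded genes or 1 library at a time. The members and lists were chosen with earlier results of these data known. Members with a mean of at least 1 CPM, or an unadjusted p under 0.05, are given by library. From each pathway list the 3 genes with the smallest p in each direction are named, with Axin2 in any case.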

Additional observations from a re-analysis of the deposited data

How the results depend on the processing

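The count of members called moved from 0 to 2 with DESeq2 and to 15 without Runx1_FB_KO replicate 3, and lay between 0 and 15 over the libraries left out. The count over all genes was 889 with no filter on low counts, 3018 with DESeq2 and 2311 at an adjusted p under 0.1, and 0 to 6947 over the libraries left out. The count of pathway genes called was 1 with no filter, 17 with DESeq2 and 8 at 0.1, and 0 to 35 over the libraries left out. Members with all knockout values below CTL numbered 9 under library size alone (beside 39.8% of all genes) and 9 in TPM (beside 46.6% of all genes), and those above numbered 0 under both and 0 under upper quartile scaling. Without Runx1_FB_KO replicate 3, an alternative chosen after seeing the data, they numbered 18 and 2. The log2 ratio of summed CPM was -0.12 for ligands and -0.29 for receptors. Over the libraries left out the log2 ratio of summed TPM ranged from -1.29 to -0.59 for ligands, -1.45 to -0.73 for receptors, -1.58 to -0.49 for R-spondins and -3.56 to -1.63 for inhibitors. Direction was kept in every alternative by 21 of 33 members and 21 of 24 pathway genes, Runx1 included. Under library size alone, which moved the median of all genes to -0.52, the log2 fold change turned to -0.12 for Wnt9a, -0.095 for Fzd3, -0.12 for Sfrp4, -0.34 for Wnt5a, -0.051 for Wnt2b, -0.28 for Lrp6, -0.028 for Fzd9, -0.44 for Fzd4, -0.12 for Dvl3 and -0.099 for Ccnd1. Upper quartile scaling gave Fzd4 -0.037. Sex as a covariate gave Rspo1 0.57 and Wnt16 0.29, and limma-voom gave Rspo1 0.24. The effective length offset gave Celsr3 0.74. Over the libraries left out, the log2 fold change ranged from -2.61 to -1.07 for Runx1, -0.40 to 0.90 for Wnt2 (negative without Runx1_FB_KO replicate 3), -0.20 to 1.46 for Sfrp4 and -0.088 to 0.30 for Wnt5a (negative without CTL replicate 1), -1.88 to 0.0076 for Dkk2 (positive without Runx1_FB_KO replicate 2), -0.099 to 0.15 for Fzd4 (negative without CTL replicate 1, and -0.013 without Runx1_FB_KO replicate 2), -0.47 to 0.66 for Rspo1 (positive without CTL replicate 2, and 0.15 without Runx1_FB_KO replicate 3) and -2.03 to 0.97 for Wnt16 (positive without CTL replicate 2). The cause was not tested. The replicate block gave 0 calls among members and over all genes and turned Rspo1 to 0.22. Correlations of same-numbered libraries' deviations from their group means were -0.051, 0.113 and 0.081. Those of differently numbered libraries ranged from -0.174 to 0.128. The labels name no pairing, and with so few libraries these values cannot settle whether samples were paired. Reads limit Wif1, Wnt2, Wnt2b, Wnt9b, Wnt10b, Wnt16, Rspo2 and Rspo3.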

Other observations

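A ligand, a receptor and an inhibitor left untested for low counts had uneven reads between libraries. Wnt6 had 9, 2 and 10 reads in knockout replicates 1, 2 and 3, against 1, 0 and 3 reads in CTL. Fzd10 had 0, 1 and 0 reads in the knockout, against 0, 4 and 9 reads in CTL. Sfrp5 had 1, 6 and 7 reads in the knockout, against 0, 3 and 5 reads in CTL. These genes were chosen after their values were seen, and reads this few carry no comparison.

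The 2 coding transcripts of Wnt5a took different shares of its reads. ENSMUST00000063465.11 held 98.6, 115.4 and 171.3 reads in the knockout, against 72.7, 210.7 and 166.5 reads in CTL. ENSMUST00000112272.1 held 190.5, 95.7 and 118.0 reads in the knockout, against 146.7, 180.2 and 188.8 reads in CTL. Both transcripts overlapped between groups, and the division of reads between transcripts that share sequence is an estimate by Salmon.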
